A study of Mus musculus with 3 samples.

Results

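Thbs1, Vcan, Fn1, F13a1 and F10 encode secreted matrix and clotting proteins that monocytes make, and their levels were followed here through the cell types of mouse bone marrow. They are 5 of the 32285 genes in the deposited tables and were picked by symbol. Thbs1 and Vcan were chosen by their measured differences between the groups, so those differences are given below as a description and support nothing. The study profiled marrow of the femur and tibia, from the mouse strain C57BL/6J, by droplet single-cell RNA sequencing, which counts captured RNA molecules as UMIs (unique molecular identifiers) in each cell. There were 3 groups: MI-E, MI with the agent that the labels give only as EMPA; MI, myocardial infarction; and Sham, the operated control. The labels describe ligation of the LAD, a coronary artery, under every library, Sham included, so what the Sham operation left out cannot be read from them. The cells of all groups had passed through a Ficoll density gradient; the number of animals, their age and sex, the dose and the time after surgery are not stated in those labels.

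Each group has 1 library. No difference below could be tested, no replicate spread is known, and every value describes these libraries. The tables hold 109451500 UMIs in 22857 barcodes for MI-E, 127330601 in 23810 for MI and 99657072 in 25721 for Sham. After the cell filter and removal of likely doublets, 20145 MI-E, 20946 MI and 21793 Sham cells remained. Between 156 and 176 cell barcodes were shared by each pair of libraries. A level is a gene's UMIs over all UMIs of its cell class, on the usual CPM scale, with an exact Poisson interval; ratios of levels carry an exact conditional binomial interval and shares of cells an exact Clopper-Pearson interval. All are at 95% and cover counting error only.

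Thrombospondin-1 (Thbs1) is a secreted glycoprotein that binds the receptors CD47 and CD36 and can activate latent TGF-beta; platelets store it as well. Versican (Vcan) is a large chondroitin sulfate proteoglycan that binds hyaluronan, and fibronectin (Fn1) is the adhesive glycoprotein that integrins grip. F13a1 encodes the A subunit of factor XIII, the transglutaminase that cross-links fibrin and ties fibronectin into a clot, and F10 encodes factor X, the vitamin K-dependent protease that, once active, cuts prothrombin to thrombin. Classical monocytes form in the marrow from dividing progenitors, leave for the blood and enter injured tissue such as the infarcted heart.

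Per GENCODE M21 on build mm10, Thbs1 lies on chromosome 2 (chr2:118111876-118127133, plus strand), Vcan and F13a1 on the minus strand of chromosome 13 (chr13:89655312-89742509 and chr13:36867178-37050244), Fn1 on chromosome 1 (chr1:71585520-71653200, minus strand) and F10 on chromosome 8 (chr8:13037308-13056676, plus strand). The 5 genes that overlap them on the other strand, Gm29233, Gm4117, Apol7d, Gm49144 and Gm30489, had at most 7.14 CPM in monocyte-like cells of any library. Start-site windows of 300 bases (250 before the start and 50 after it, RefSeq, GRCm38.p6) were found for 3 of the 5 genes, with 2 starts for F13a1; none was found for Thbs1 or Fn1. They are shown because Vcan, F13a1 and F10 are high in the same cells while Vcan, among them, stood furthest apart between the groups. Capitals mark GAGGAA, the core that the myeloid factor PU.1 binds, on the strand of the gene. Vcan lies at chr13:89742463-89742762 (minus strand), the outer F13a1 start at chr13:37050195-37050494 (minus strand) and F10 at chr8:13037058-13037357 (plus strand).
Vcan: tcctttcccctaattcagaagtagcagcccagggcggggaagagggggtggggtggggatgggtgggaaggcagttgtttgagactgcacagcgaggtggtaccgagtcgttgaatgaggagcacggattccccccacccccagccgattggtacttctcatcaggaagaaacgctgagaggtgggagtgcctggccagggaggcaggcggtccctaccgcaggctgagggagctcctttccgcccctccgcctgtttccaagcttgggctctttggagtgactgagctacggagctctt
F13a1: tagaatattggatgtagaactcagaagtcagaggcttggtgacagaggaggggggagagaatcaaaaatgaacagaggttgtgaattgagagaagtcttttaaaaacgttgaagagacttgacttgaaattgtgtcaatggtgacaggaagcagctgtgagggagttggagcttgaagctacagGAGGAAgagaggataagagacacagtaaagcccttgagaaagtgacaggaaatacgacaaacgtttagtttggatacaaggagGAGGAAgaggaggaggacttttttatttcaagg
F10: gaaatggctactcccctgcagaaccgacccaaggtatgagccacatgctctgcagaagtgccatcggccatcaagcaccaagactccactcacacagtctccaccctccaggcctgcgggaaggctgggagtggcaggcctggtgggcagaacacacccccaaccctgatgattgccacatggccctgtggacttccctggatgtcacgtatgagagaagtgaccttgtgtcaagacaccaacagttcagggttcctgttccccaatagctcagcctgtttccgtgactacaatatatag
The motifs GAGGAA (PU.1 core), TTGCNNAA (C/EBP) and TGANTCA (AP-1) were searched on both strands, and none of them overlaps another here. GAGGAA was found in the outer F13a1 window 66 bases before the start and 18 bases after it, and once in the inner F13a1 window (chr13:37049164-37049463, minus strand), 15 bases after its start. The Vcan and F10 windows held none of the 3 motifs, which says only that these letters are not in these windows. Of all 32851 RefSeq windows of this length, 28.3% held GAGGAA, 10.8% TTGCNNAA and 7.81% TGANTCA, so a match is common.

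Cells were sorted into 37 clusters from variable genes without these 5 genes, and clusters were named from marker lists. Monocyte-like cells numbered 4549 in MI-E, 5210 in MI and 3616 in Sham. Of them, 36.8% in MI-E, 28.6% in MI and 24.4% in Sham lay in clusters of dividing cells. This order depended on the settings. With 4000 variable genes, 512 of 3321 MI-E, 349 of 4014 MI and 521 of 3264 Sham cells were dividing. MI was also below Sham with looser and stricter filters, doublets kept and libraries clustered apart. It stayed above Sham at resolution 0.5 and 2 and with the 5 genes among the variable genes. Defining markers of classical monocytes were present. Ly6c2 had 1876 CPM in MI-E, 1962 in MI and 2518 in Sham. Ccr2 had 1016, 845 and 1153 CPM in the same order. Granulocyte-monocyte progenitor markers summed to 4686 CPM in MI-E, 4468 in MI and 2741 in Sham over all monocyte-like cells. In the non-dividing cells alone they summed to 530, 597 and 363 CPM. In the naming of dividing clusters 7 and 14, the progenitor list came second to the monocyte list. The non-dividing cells of MI-E and MI sat apart from those of Sham. Cluster 1, led by Saa3, Vcan and Ms4a8a, held 97.5% of them in MI-E, 99.2% in MI and 2.12% in Sham; cluster 6, led by Ifi27l2a, Cx3cr1 and Slfn5, held 2.51%, 0.78% and 97.9%. A cluster that is mostly 1 library or a pair of libraries may reflect those libraries rather than a cell type. Dividing monocyte-like cells were not split in this way: cluster 7 held 61.0% of them in MI-E, 57.5% in MI and 65.2% in Sham.

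Monocyte-like cells held most of the UMIs of 4 of the genes in every library. Their share of Vcan was 95.3% in MI-E, 94.3% in MI and 93.3% in Sham, that of Fn1 93.9%, 93.6% and 91.9%, and that of F13a1 90.3%, 90.3% and 89.7%. For F10 it was 83.3%, 81.3% and 77.3%, and granulocyte-monocyte progenitor-like cells added 7.40%, 8.11% and 12.5%. Thbs1 was the exception: monocyte-like cells held 72.2% of its UMIs in MI-E and 69.9% in MI but 26.7% in Sham, where neutrophil-like cells held 59.6%. Numbers of cells enter these shares, and neutrophil-like cells made up 26.4% of MI-E, 31.8% of MI and 11.6% of Sham cells.

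Over the 14 classes that had 50 or more cells in every library, non-dividing monocyte-like cells had the highest median level of all 5 genes. For Fn1 and F13a1, dividing monocyte-like cells came next and conventional dendritic-like cells followed. The ranges of the dividing cells over the 3 libraries overlapped neither neighbour in rank. For Fn1, though, non-classical monocyte-like cells reached 1105 CPM, above the lowest value of the dividing cells, 1100 CPM. Vcan was next highest in dividing monocyte-like, non-classical monocyte-like and conventional dendritic-like cells, whose ranges overlapped. F10 was next highest in dividing monocyte-like, then non-classical monocyte-like and granulocyte-monocyte progenitor-like cells. The range of the non-classical cells overlapped both others, which did not overlap each other. Granulocyte-monocyte progenitor-like cells, the stage before monocytes and neutrophils part, had 48.6 CPM of F10 in MI-E, 49.0 in MI and 43.7 in Sham. Thbs1 was next highest in macrophage-like cells and then in neutrophil-like cells, and each neighbouring pair in its order overlapped.

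**Figure D1:**
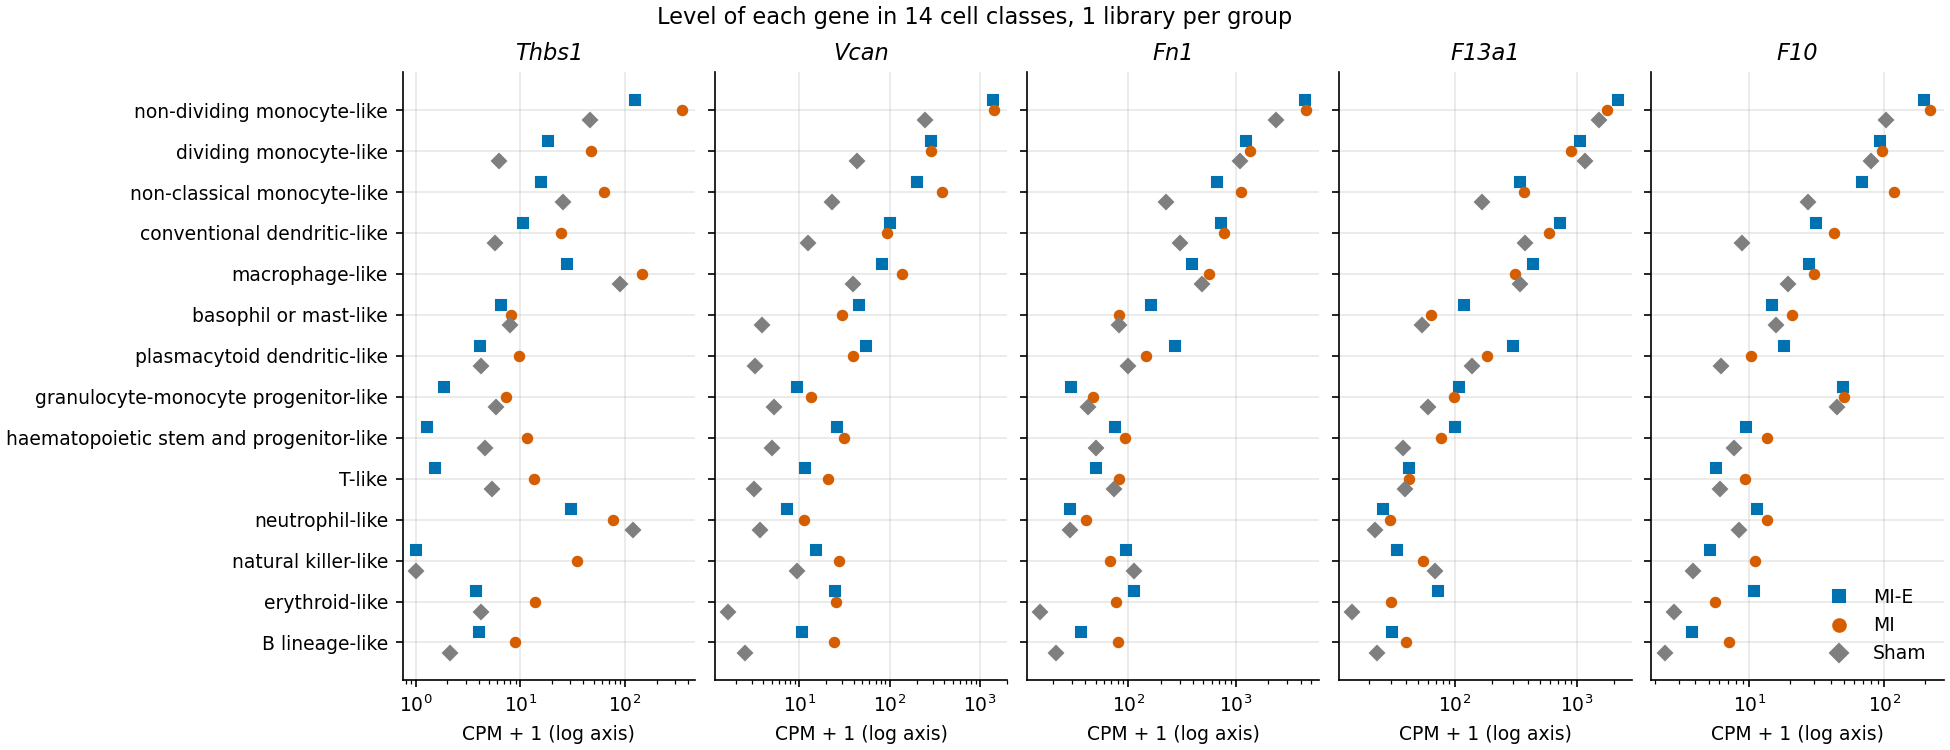
Level of each gene in 14 cell classes (rows), as CPM plus 1 on a log axis; each point is 1 library. Non-dividing monocyte-like cells have the highest median of every gene, and Thbs1 alone has neutrophil-like cells near the top, with 117 CPM in Sham.

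Versican, among the genes chosen by their group difference, was higher in MI-E and MI than in Sham in monocyte-like cells of each kind. In non-dividing monocyte-like cells its level was 1398 CPM in MI-E (interval 1377 to 1420), 1425 in MI (1407 to 1443) and 246 in Sham (236 to 255). MI-E and MI thus lay side by side and Sham far below them. The MI over Sham ratio was 5.80 (5.57 to 6.04), MI-E over Sham 5.69 (5.46 to 5.94) and MI-E over MI 0.981 (0.962 to 1.001). In dividing monocyte-like cells Vcan had 289 CPM in MI-E, 285 in MI and 42.4 in Sham, with Sham far below the others. The MI over Sham ratio there was 6.71 (6.05 to 7.45) and MI-E over MI was 1.02 (0.98 to 1.05). In an alternative added after seeing the data, without cells that had over 1% of their UMIs in the calprotectin genes S100a8 and S100a9, those ratios were 2.09 and 2.20, so that MI also lay below MI-E. Non-classical monocyte-like cells, the patrolling type that carries Ace and Nr4a1, had 95 Vcan UMIs in MI-E, 191 in MI and 11 in Sham, levels of 380.4 CPM in MI and 22.4 in Sham. The MI-E over Sham ratio was 8.94 (4.78 to 18.5), MI over Sham 17.0 (9.29 to 34.6) and MI-E over MI 0.526 (0.407 to 0.676), so here MI-E lay between the other libraries. Those UMIs came from few cells, 27 of 223 in MI-E, 51 of 241 in MI and 6 of 203 in Sham, and neutrophil markers in this class summed to 12.5%, 12.9% and 14.8% of their level in neutrophil-like cells. Of the classical monocyte markers, Ccr2 had 1339 CPM in MI-E, 1229 in MI and 496 in Sham in this class, and Ly6c2 had 356, 323 and 305 CPM. Whether classical monocytes in this class enter its levels of Vcan, Fn1 and F10 was not tested.

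Thrombospondin-1, also chosen by its group difference, had a different order: MI above MI-E above Sham. In non-dividing monocyte-like cells its level was 125 CPM in MI-E (118 to 131), 347 in MI (338 to 356) and 45.4 in Sham (41.4 to 49.6). The MI over Sham ratio was 7.65 (6.97 to 8.42), MI-E over MI 0.359 (0.339 to 0.380) and MI-E over Sham 2.75 (2.48 to 3.06). Dividing monocyte-like cells had lower levels in the same order, with 17.2 CPM in MI-E, 46.7 in MI and 5.28 in Sham. Their MI over Sham ratio was 8.85 (6.63 to 12.1) and MI-E over MI 0.368 (0.327 to 0.413), or 2.45 and 0.763 without the cells rich in S100a8 and S100a9. Non-classical monocyte-like cells had 14.7, 61.7 and 24.4 CPM, from 7, 31 and 12 UMIs, too few to place Sham beside MI-E.

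**Figure D2:**
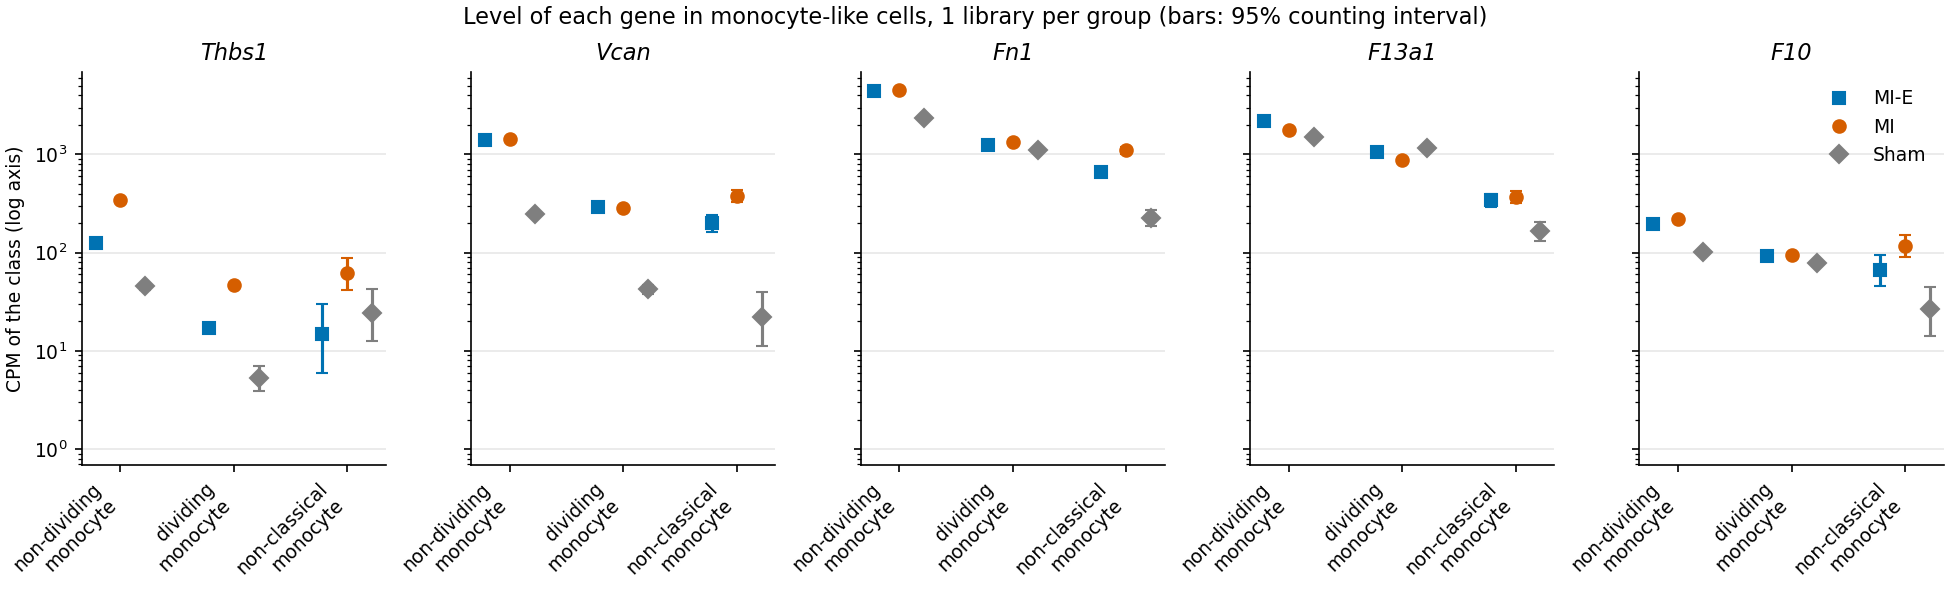
Level of each gene (CPM on a log axis) in non-dividing, dividing and non-classical monocyte-like cells of MI-E, MI and Sham, with 95% counting intervals. Vcan in non-dividing cells is at 1398 CPM in MI-E and 1425 in MI but 246 in Sham, whereas Thbs1 is at 125, 347 and 45.4 CPM.

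Fibronectin, which was not picked for a group difference, was likewise higher in MI-E and MI than in Sham in non-dividing monocyte-like cells, by a smaller factor. It had 4414 CPM in MI-E, 4484 in MI and 2370 in Sham there, an MI over Sham ratio of 1.89 (1.87 to 1.92). In dividing monocyte-like cells the 3 libraries were closer, at 1247 CPM in MI-E, 1340 in MI and 1100 in Sham, an MI over Sham ratio of 1.22 (1.19 to 1.25) that turned to 0.499 without the cells rich in S100a8 and S100a9. The dividing clusters differed in the MI over Sham ratio of Fn1. It was 1.03 (1.01 to 1.06) in cluster 7, 1.77 (1.67 to 1.87) in cluster 14 and 1.74 (1.63 to 1.86) in cluster 28. Non-classical monocyte-like cells had 663 CPM in MI-E, 1105 in MI and 226 in Sham, an MI over Sham ratio of 4.90 (3.99 to 6.06).

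Neither clotting gene was picked for a group difference. F13a1, the fibrin cross-linker, had 2171 CPM in MI-E, 1757 in MI and 1510 in Sham in non-dividing monocyte-like cells, so that MI-E was highest. Its ratios there were 1.16 (1.14 to 1.19) for MI over Sham and 1.24 (1.22 to 1.26) for MI-E over MI. In dividing monocyte-like cells the place of Sham was turned round: 1065 CPM in MI-E, 886 in MI and 1164 in Sham, with an MI over Sham ratio of 0.761 (0.743 to 0.779). MI over Sham kept its direction there under all 15 alternatives; MI-E over Sham, at 0.914, changed direction under 6 of 15, with a range of 0.845 to 1.10. F10, the factor X gene, had 196 CPM in MI-E, 219 in MI and 102 in Sham in non-dividing cells, a ratio of 2.14 (2.00 to 2.29) for MI over Sham and 0.898 (0.852 to 0.946) for MI-E over MI. In dividing cells it had 91.8, 94.7 and 79.1 CPM, an MI over Sham ratio of 1.20 (1.10 to 1.31) that was 0.742 without the cells rich in S100a8 and S100a9. Non-classical monocyte-like cells had 117.5 CPM of F10 in MI and 26.4 in Sham, from 59 and 13 UMIs.

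Over all monocyte-like cells together, 2 of the 5 genes were 2-fold or more higher in MI than in Sham, Thbs1 at 6.62-fold and Vcan at 5.15-fold, and 0 were 2-fold or more lower. Among the 7699 genes with a mean of at least 10 CPM in these libraries, 1.99% were that much higher and 3.1% that much lower. For MI-E over MI, 0 of the 5 were 2-fold or more higher and 1 was lower, Thbs1 at 0.301-fold, beside 0.142% higher and 0.155% lower of 7756 genes. For MI-E over Sham, 1 was higher, Vcan at 4.37-fold, and 0 were lower, beside 2.08% and 2.21% of 7792 genes; Thbs1 was just inside the limit at 1.99-fold. Since Thbs1 and Vcan were chosen by these differences, nothing is read from the counts. Under the main settings, dividing cells supplied 66.6% of monocyte-like UMIs in MI-E, 56.8% in MI and 46.7% in Sham. The genes are lower in dividing cells, so sums over both kinds mix level with make-up. Thus Vcan for MI-E over MI was 0.848 (0.834 to 0.863) over all monocyte-like cells but 0.981 and 1.02 within the non-dividing and the dividing cells. The comparisons share libraries, so their values stand side by side and are not counted as separate evidence.

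**Figure D3:**
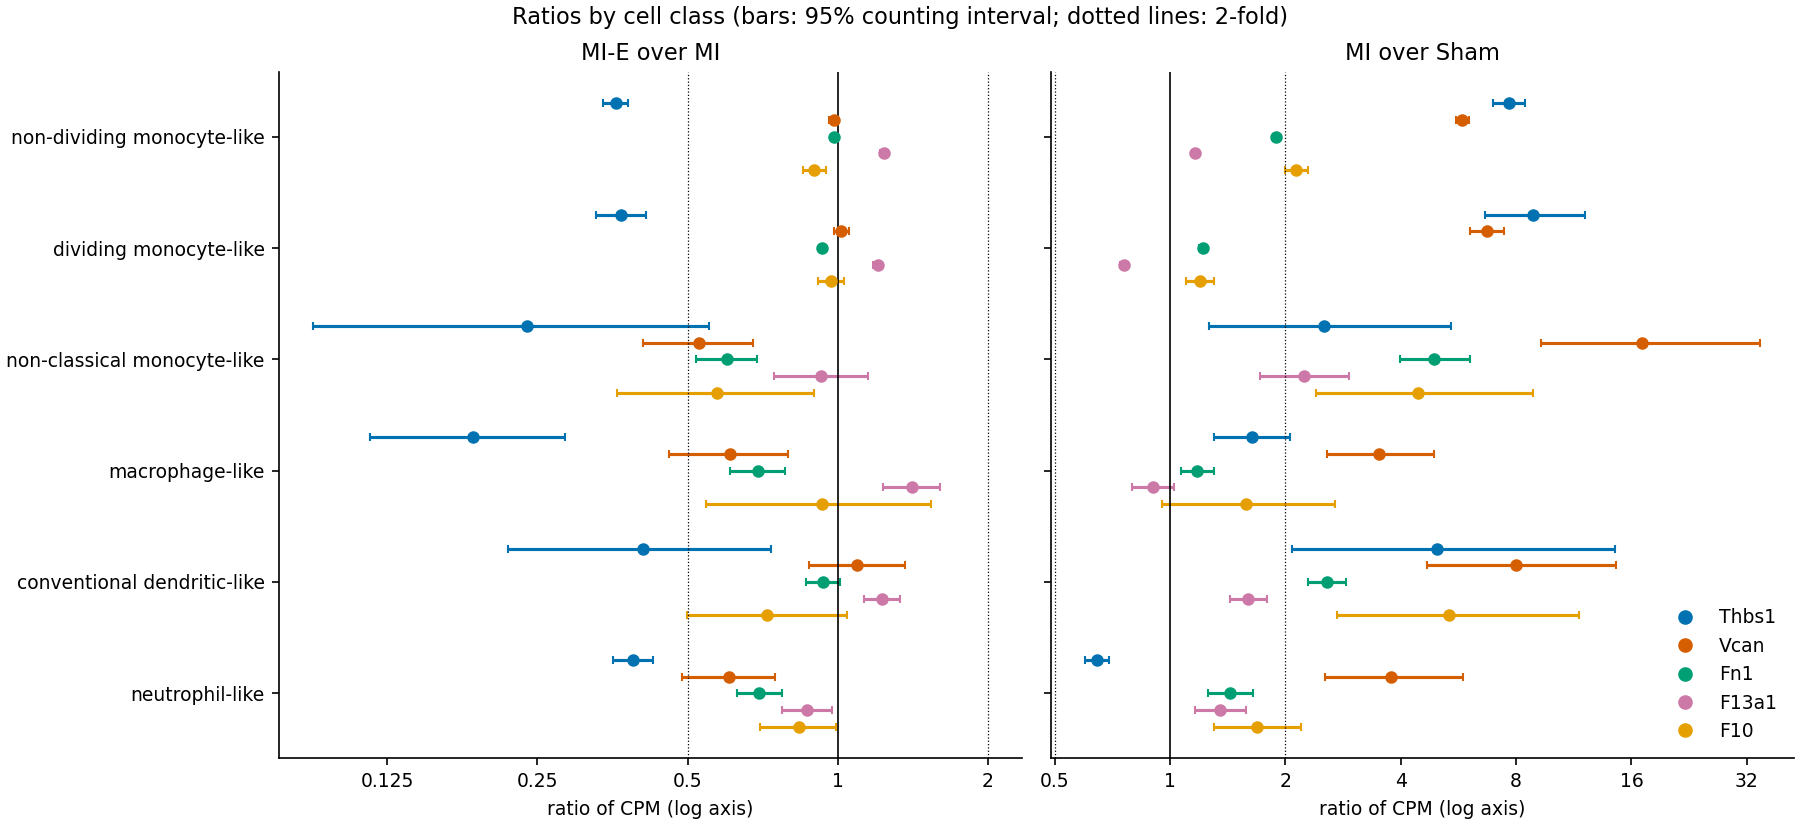
Ratio of CPM on a log axis for MI-E over MI and MI over Sham, by gene and cell class, with 95% counting intervals. Dotted lines mark 2-fold. For MI over Sham, Thbs1 is at 7.65 in non-dividing monocyte-like cells and at 0.645 in neutrophil-like cells; for MI-E over MI it is under 0.4 in both.

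Ratios inside single clusters were computed where both libraries had at least 50 cells. Within cluster 1, where Sham has only 58 cells, the MI over Sham ratio was 4.18 (2.49 to 7.65) for Thbs1 and 4.37 (3.36 to 5.80) for Vcan. Within the dividing cluster 7, with 576 Sham cells, it was 7.04 (5.11 to 9.95) for Thbs1 and 5.86 (5.19 to 6.63) for Vcan. MI-E over MI for Thbs1 was 0.365 in both clusters, and the MI-E over Sham ratio of Thbs1 within cluster 1 was 1.53 with an interval of 0.907 to 2.80 that spans 1. Within cluster 6, with 72 MI-E and 2675 Sham cells, MI-E over Sham was 0.463 (0.15 to 1.09) for Thbs1, the other way from the class as a whole and from 5 MI-E UMIs, and 2.97 (2.53 to 3.46) for Vcan.

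Thbs1 was higher in MI than in Sham in 13 of the 14 classes, some of them near background, and neutrophil-like cells were the exception. They had 29.4 CPM in MI-E, 75.6 in MI and 117 in Sham, so Sham was highest; MI over Sham was 0.645 (0.601 to 0.694) and MI-E over MI 0.388 (0.354 to 0.426). Most Sham neutrophil-like cells, 1593 of 2536, lay in cluster 10, led by Slc7a11, Egr1 and Il1b, which held 116 MI-E and 52 MI cells. In that cluster Thbs1 had 96.6 CPM in MI-E, 235 in MI and 239 in Sham, so MI and Sham lay close together. Cluster 2, with 2520 of 5311 MI-E and 3083 of 6671 MI cells, had 54.5 CPM in MI-E, 151 in MI and, from 89 cells, 253 in Sham. In cluster 5 the levels were 29.6, 76.7 and 53.4 CPM, with MI above Sham. Which library was higher for MI over Sham thus varied among neutrophil-like clusters, while MI-E was below MI in each of the 6. Macrophage-like cells had 26.9 CPM in MI-E, 145 in MI and 88.7 in Sham, with MI-E lowest and MI-E over MI at 0.186 (0.116 to 0.284). The macrophage-like clusters differed in direction for MI over Sham. Cluster 26 had 187 CPM in MI and 228 in Sham, a ratio of 0.818 with an interval of 0.639 to 1.05 that spans 1. Cluster 27 had 92.2 CPM in MI and 26.3 in Sham. Cluster 30, with 49 MI and 158 Sham cells, had 0 Thbs1 UMIs, so make-up also enters the class level. Conventional dendritic-like cells had 9.46, 23.2 and 4.66 CPM, from 18, 37 and 6 UMIs, with MI highest. MI-E over Sham there was 2.03 with an interval of 0.772 to 6.25 that spans 1, so MI-E and Sham were not placed. B lineage-like cells, used below as background, had 3.06, 7.91 and 1.13 CPM. Stromal-like cells, with 76, 111 and 30 cells, had 82.0, 128 and 120 CPM, and the Sham interval there ran from 65.4 to 201.

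**Figure D4:**
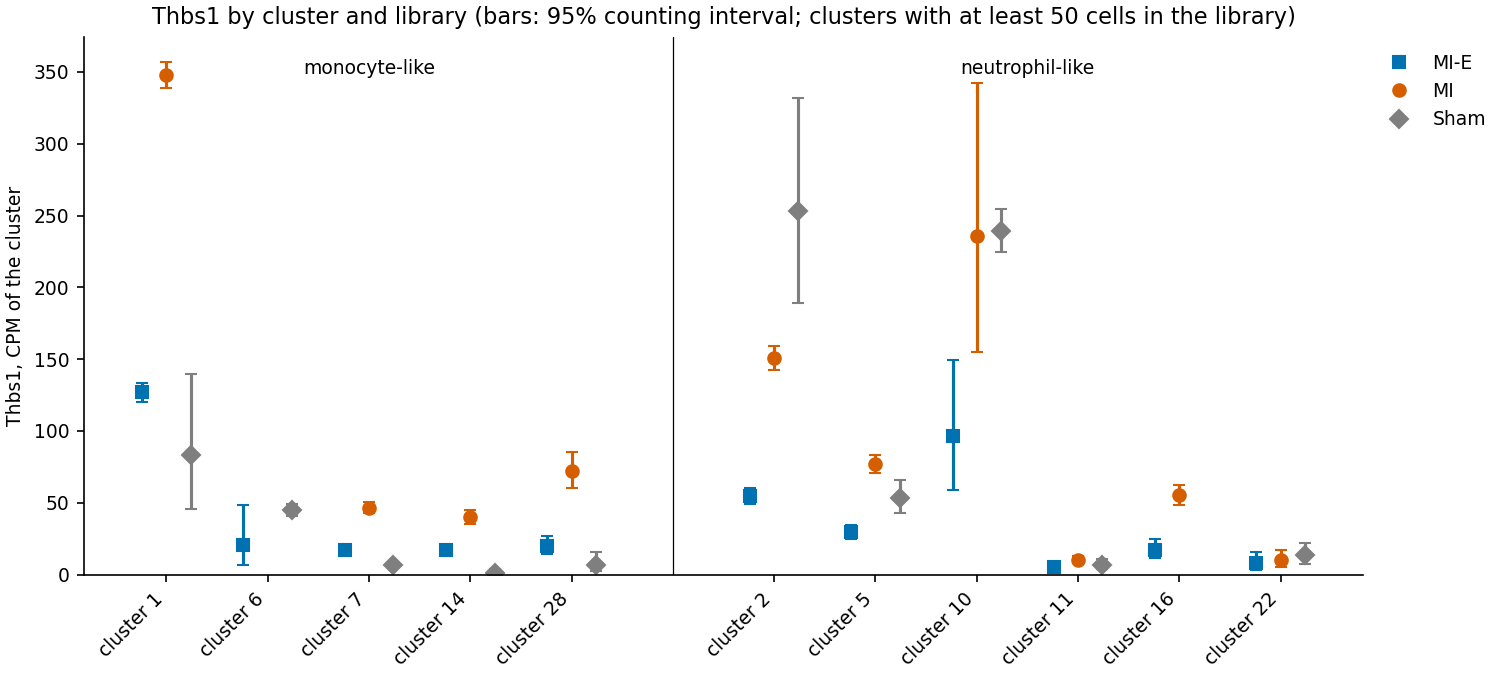
Thbs1 level (CPM of the cluster) in monocyte-like and neutrophil-like clusters by library, with 95% counting intervals and only clusters with at least 50 cells in the library. MI is above MI-E in each neutrophil-like cluster drawn for both, whereas Sham lies at 253 CPM in cluster 2 and 53.4 CPM in cluster 5.

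The other genes were also measured well above background in a few further classes. Conventional dendritic-like cells, which branch from the same progenitors, had 101 CPM of Vcan in MI-E, 93.0 in MI and 11.7 in Sham, an MI over Sham ratio of 7.98 (4.68 to 14.6). That Vcan came from few cells, 46 of 446 in MI-E, 33 of 367 in MI and 8 of 301 in Sham, with 15 UMIs in Sham. In the naming of this class the monocyte list came second. The class had 721, 771 and 301 CPM of Fn1 and 726, 593 and 371 CPM of F13a1, so Sham was lowest for each of these genes. In macrophage-like cells Vcan had 82.0 CPM in MI-E, 135 in MI and 38.4 in Sham, while F13a1 had 436, 309 and 342 CPM, with MI-E highest. The MI over Sham ratio of F13a1 there, 0.904, had an interval of 0.797 to 1.03 that spans 1. Within single macrophage-like clusters, MI-E over MI of F13a1 was 0.392 (0.172 to 0.785) in cluster 26, from 9 MI-E UMIs. It was 1.10 (0.962 to 1.27) in cluster 27, so MI-E was not highest in each cluster and make-up enters the class level. Stromal-like cells had 265, 277 and 128 CPM of Vcan and 708, 819 and 547 CPM of Fn1. The Sham values there came from 30 cells, with 15 UMIs of Vcan and 64 of Fn1.

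In single cells, the libraries differed in how many cells carried the genes. Cells were thinned to 1000 UMIs each, which left out 55 MI-E, 49 MI and 33 Sham non-dividing cells that were shallower. At that depth Thbs1 was seen in 10.6% of MI-E (9.49 to 11.8%), 25.6% of MI (24.2 to 27.0%) and 4.26% of Sham cells (3.53 to 5.09%). Vcan was seen in 69.2% of MI-E, 71.0% of MI and 19.2% of Sham cells. Without thinning, at medians of 3929, 4131 and 3596 UMIs per cell, the shares were 27.3%, 56.7% and 10.8% for Thbs1 and 92.5%, 95.5% and 39.7% for Vcan. Fn1 at equal depth was seen in 94.9%, 96.9% and 79.8% of cells, F13a1 in 84.8%, 78.9% and 72.4%, and F10 in 17.9%, 19.95% and 9.48%. Fn1 and F13a1 were thus in most cells of every library. In dividing cells, of which 13 MI-E, 2 MI and 5 Sham cells were left out, Thbs1 was seen in 1.74%, 4.84% and 0.797% and Vcan in 26.4%, 27.5% and 4.90%. No single cell carried the result: the cell with the most Thbs1 UMIs held 0.747% of them in MI-E, 0.54% in MI and 1.70% in Sham non-dividing cells.

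**Figure D5:**
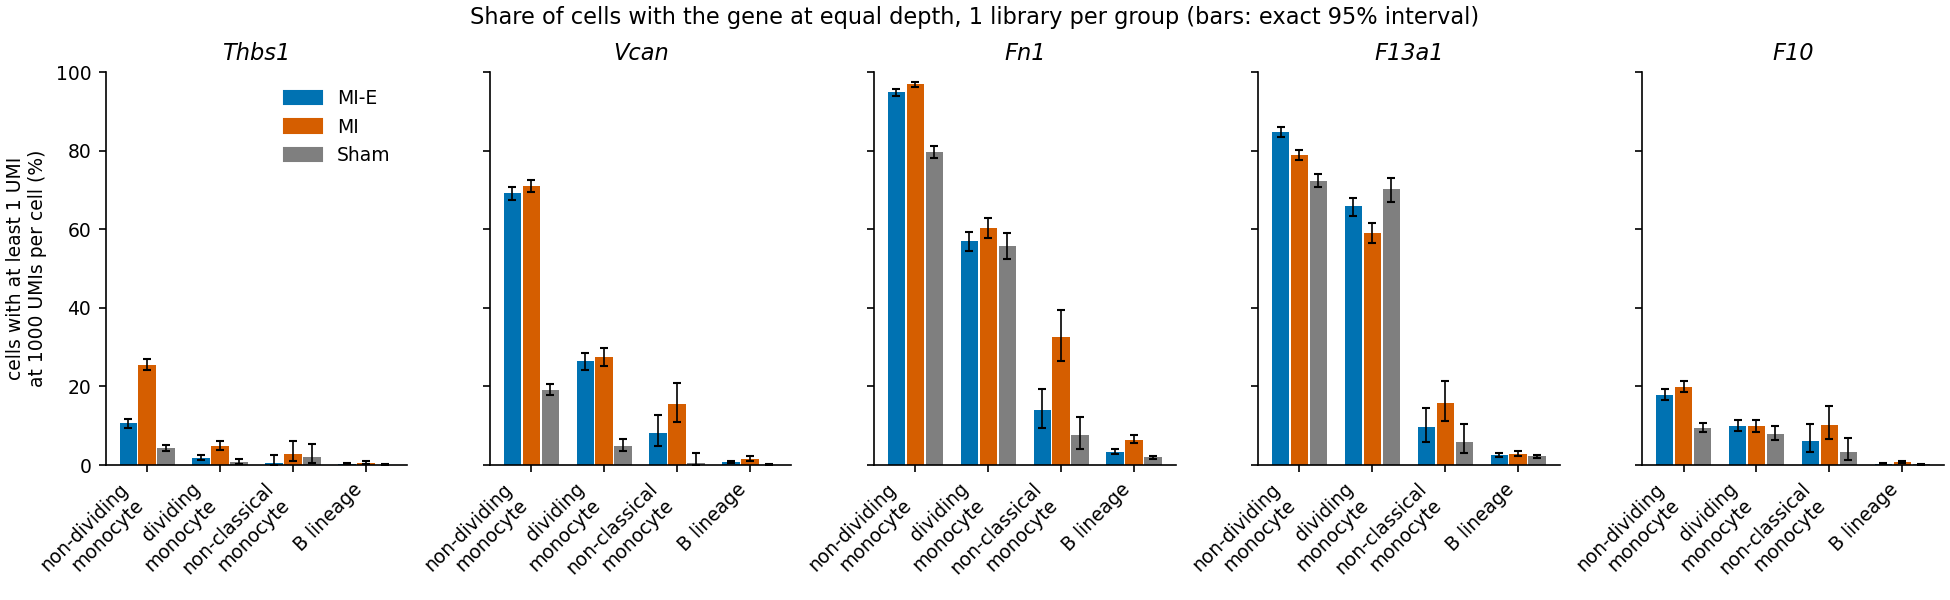
Share of cells with at least 1 UMI of each gene after thinning every cell to 1000 UMIs, by class and library, with exact 95% intervals. In non-dividing monocyte-like cells Vcan is seen in 69.2% of MI-E, 71.0% of MI and 19.2% of Sham cells, and Thbs1 in 10.6%, 25.6% and 4.26%.

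Genes were also compared within cells. Among non-dividing cells at equal depth, Vcan was seen in 79.9% of MI-E cells with Thbs1 and 67.9% of those without it, in 73.9% and 70.0% in MI, and in 30.4% and 18.7% in Sham. The intervals of the pair overlapped in MI, at 70.9 to 76.7% and 68.3 to 71.7%, but not in MI-E or Sham. F13a1 was seen in 85.5% of MI-E cells with Fn1 and 71.3% of those without it, in 79.2% and 71.1% in MI, and in 76.0% and 58.1% in Sham. F10 was seen in 18.1% of MI-E cells with Thbs1 and 17.9% of those without, in 21.0% and 19.6% in MI and in 8.70% and 9.52% in Sham, differences within the counting intervals.

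RNA freed from broken cells can give droplets a low count of such genes, so B lineage-like cells, which should lack them, served as background. The origin of the UMIs in B lineage-like cells was not tested. In MI, a single B lineage-like cell held 45 Fn1 UMIs, 11.7% of those in the class. The highest Vcan count there was 16 UMIs in a cell, 14.2% of the class. Median depth of B lineage-like cells was 1078 UMIs in MI-E, 1063 in MI and 1396 in Sham. At 1000 UMIs per cell Thbs1 was seen in 0.366%, 0.55% and 0.117% of them and Vcan in 0.671%, 1.61% and 0.128%. For each 100 Fn1 UMIs, B lineage-like cells held 27.2 Vcan UMIs in MI-E, 29.4 in MI and 7.53 in Sham, beside 28.6, 28.8 and 8.49 in monocyte-like cells. Levels of Vcan in neutrophil-like cells (6.26, 10.3 and 2.73 CPM) were within 2-fold of those in B lineage-like cells or below them (9.76, 23.5 and 1.55 CPM) and are read as background. The Thbs1 share in neutrophil-like cells, 3.33% in MI-E, 7.80% in MI and 10.97% in Sham, stood well above the background share. In dividing cells of Sham, 7 of 878 cells held Thbs1, an interval of 0.321 to 1.64%.

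Neutrophil markers moved with the groups in monocyte-like cells. In the non-dividing cells the 14 listed genes summed to 12720 CPM in MI-E, 26473 in MI and 2655 in Sham, with 12, 13 and 12 of them at 10 CPM or more and none at 0. That is 3.22%, 6.36% and 0.626% of their sum in neutrophil-like cells of the same library. S100a8 alone had 7784 CPM in MI-E, 15625 in MI and 1007 in Sham. The order of the libraries is that of Thbs1 in these cells. Thbs1 had 29.4, 75.6 and 117 CPM in neutrophil-like cells of MI-E, MI and Sham, beside 125, 347 and 45.4 CPM in non-dividing monocyte-like cells. Leaving out the cells with over 1% of their UMIs in S100a8 and S100a9 took 754 of 2874 MI-E, 1710 of 3719 MI and 35 of 2733 Sham non-dividing cells. The remaining cells had 116 CPM of Thbs1 in MI-E, 337 in MI and 44.7 in Sham, and 1364, 1441 and 247 CPM of Vcan, nearly the levels with all cells.

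The dividing cells gave other values under the same step, which left out 613 of 1675 MI-E, 845 of 1491 MI and 51 of 883 Sham cells. The remaining dividing cells had 9.35 CPM of Thbs1 in MI-E, 12.3 in MI and 5.01 in Sham, and 201, 91.4 and 43.7 CPM of Vcan. There the MI over Sham ratio was 2.45 for Thbs1 and 2.09 for Vcan, and MI-E over MI was 0.763 for Thbs1 and 2.20 for Vcan. Fn1 had 968, 570 and 1142 CPM and F10 74.4, 58.0 and 78.2 CPM in those cells, so MI lay below Sham for both. In the dividing cells the size of the differences, and for Fn1 and F10 the direction, thus changed when cells with much S100a8 and S100a9 were left out. The step took 36.6% of MI-E, 56.7% of MI and 5.78% of Sham cells, so the cells that remained are unlike parts of the libraries. What sets the cells left out apart was not tested.

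Other marker lists also differed between the libraries in non-dividing monocyte-like cells. Conventional dendritic markers summed to 324 CPM in MI-E, 170 in MI and 1294 in Sham, B lineage markers to 144, 89.5 and 498 CPM and erythroid markers to 475, 581 and 1583 CPM; their part in the results was not tested. Megakaryocyte markers, which would mark platelets, a known store of Thbs1 and F13a1 protein, summed to 12.1, 16.6 and 12.8 CPM with 0 of 9 at 10 CPM or more. Stromal markers summed to 1.61, 2.96 and 3.37 CPM, with Dcn at 0 in all 3 libraries. The mitochondrial share of UMIs was 2.63% in MI-E, 2.13% in MI and 2.21% in Sham.

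Lists of related genes are described over all monocyte-like cells, with counts for the non-dividing cells beside them, since the sums mix level with make-up. Over all monocyte-like cells the background of 2-fold differences was 164 higher and 219 lower of 7751 genes for MI over Sham and 14 higher and 12 lower for MI-E over MI; in non-dividing cells it was 205 and 277 of 7421 for MI over Sham and 55 and 17 for MI-E over MI. Of 35 other matrix proteins, 9 had a mean of at least 10 CPM in monocyte-like cells; 2 were 2-fold or more higher in MI than in Sham and 0 lower, with a median log2 ratio of 0.60, beside 0.02 for all genes. In non-dividing cells 3 of 9 were higher and 0 lower, with a median of 0.46; with a minimum mean of 50 CPM the median over all monocyte-like cells turned to -0.11. Crispld2, a secreted protein, had 34.3 CPM in MI-E, 37.6 in MI and 3.95 in Sham, and Ecm1, named after its value was seen, had 18.9, 24.4 and 6.52 CPM. The TGF-beta-induced adhesion protein Tgfbi (695, 628 and 414 CPM) and the granule proteoglycan core protein Srgn (372, 450 and 297 CPM) were 1.52-fold and 1.51-fold higher in MI than in Sham. The galectins Lgals3 (1686, 1939 and 2087 CPM) and Lgals1 (788, 624 and 1154 CPM) stood at 0.929 and 0.54 times Sham.

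Among matrix proteases and their inhibitors, 12 of 23 were measured, 4 of them 2-fold or more higher in MI than in Sham and 1 lower, with a median log2 ratio of -0.14. In non-dividing cells 5 of 13 were higher and 1 lower and the median was 0.25, so its sign turned. The collagenase Mmp8 had 339 CPM in MI-E, 496 in MI and 125 in Sham, a ratio of 3.97 for MI over Sham and 0.683 for MI-E over MI; it is also on the neutrophil marker list. Adam8 (10.9, 24.7 and 6.98 CPM), Mmp9 (21.2, 32.7 and 12.2 CPM) and the cathepsin Ctsl (71.3, 86.6 and 35.1 CPM) were the other 3, and the protease inhibitor Timp2 (13.3, 8.57 and 22.1 CPM) the one lower; these were named after their values were seen. The abundant cathepsins Ctss (511, 498 and 849 CPM) and Ctsb (406, 301 and 534 CPM) were at 0.587 and 0.563 times Sham in MI, and Ctsd (250, 266 and 200 CPM) at 1.33. For MI-E over MI, 0 of the 12 were 2-fold higher and 1 lower, Adam8 at 0.44, and in non-dividing cells 1 of 13 was higher and 1 lower.

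Receptors that bind the matrix proteins were nearly all measured, 14 of 17. For MI over Sham, 0 were 2-fold or more higher and 2 lower, with a median log2 ratio of -0.33; in non-dividing cells 1 was higher and 2 lower, with a median of -0.42. The syndecan Sdc3 had 7.89 CPM in MI-E, 4.52 in MI and 48.3 in Sham, 10.7-fold lower in MI than in Sham; the fibronectin-binding integrin chain Itga4, named after its value was seen, had 151, 115 and 245 CPM. The thrombospondin receptor Cd47 had 424, 400 and 409 CPM, an MI over Sham ratio of 0.976 (0.95 to 1.003). Cd44, which binds hyaluronan, stood at 0.877, the selectin ligand Selplg at 0.58 and the chaperone Calr at 1.67 times Sham in MI. For MI-E over MI, 0 receptors passed 2-fold either way, and 1 of 14 was higher in non-dividing cells.

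Few other clotting genes reached 10 CPM. Of 23 clotting factors and initiators, 5 did, and 0 of them were 2-fold apart between MI and Sham, with a median log2 ratio of 0.22; in non-dividing cells 1 of 5 was higher and 1 lower, with a median of 0.43. The disulfide isomerases P4hb (459, 401 and 214 CPM) and Pdia3 (333, 271 and 233 CPM) were 1.88-fold and 1.16-fold higher in MI than in Sham, and the vitamin K reductase genes Vkorc1 and Vkorc1l1, whose products recharge the vitamin K that factor X needs, stood at 0.641 and 1.27. Of 22 clotting inhibitors and fibrinolysis genes, 7 were measured, 0 of them higher and 3 lower by 2-fold or more, with a median log2 ratio of -0.46; in non-dividing cells 0 were higher and 2 lower, with a median of -0.21. Those 3, of which Thbd and Serpinb2 were named after their values were seen, were Thbd, encoding thrombomodulin (13.7, 5.54 and 20.3 CPM), Serpinb2 (17.6, 9.90 and 23.7 CPM) and the phospholipid-binding anticoagulant Anxa5 (279, 198 and 398 CPM). The plasminogen-binding pair S100a10 and Anxa2 stood at 0.725 and 0.839 and the urokinase receptor Plaur at 0.884 times Sham. For MI-E over MI, Thbd was 2.47-fold higher and 0 of these genes were 2-fold lower; the median log2 ratio was 0.49, beside 0.10 for all genes. In non-dividing cells 3 of the 7 were 2-fold higher for MI-E over MI and 0 lower, with a median of 0.68, beside 0.08 for all genes.

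For MI-E over Sham the same lists had 2 higher and 0 lower of 9 matrix proteins, 2 and 0 of 12 proteases and inhibitors, 1 and 1 of 14 receptors, 1 and 0 of 5 clotting factors and 0 and 0 of 7 inhibitors, beside 173 higher and 148 lower of 7751 genes. In non-dividing cells the counts were 3 and 0 of 9, 4 and 0 of 13, 0 and 1 of 14, 1 and 0 of 5, and 1 and 0 of 7, beside 176 and 155 of 7421. Over all monocyte-like cells the median log2 ratios were 0.52, -0.01, -0.24, 0.37 and -0.43, with 0.11 for all genes. The split of calls over all genes moved with the scaling. For MI-E over MI it was 11 higher and 12 lower of 7756 genes, but 9 and 19 with median-of-ratios and 9 and 18 with TMM scaling; for MI-E over Sham it was 162 and 172 of 7792, but 119 and 212 and 125 and 202.

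Across 42 points (14 classes in each of 3 libraries, so points share libraries and depth), Thbs1 ran apart from the others. Pearson r of log2(CPM + 10) was 0.46 to 0.64 between Thbs1 and each of the other 4 genes, against 0.81 to 0.95 among those 4. The points include classes at background level, such as B lineage-like cells, and the part of background in r was not tested. Of 6362 genes compared, those most like Thbs1 were Mmp8 (r = 0.86), Cd14, Mcemp1, Bst1 and Gdpd3 (0.81 each). For Vcan they were Fn1 (0.92), Ms4a8a (0.90), Cd302 (0.88), Msr1 (0.86) and Rab1a (0.85). For Fn1 they were F13a1 (0.95), Cd302 (0.94), Ms4a6d, Mcub and Mfsd7a (0.92 each), and for F13a1 they were Fn1, Mfsd7a (0.93), Mcub, Ms4a6c and Akr1a1 (0.92 each). For F10 they were Tor1a (0.90), Idh1 (0.89), Plod3 (0.87), Mrpl33 and Plcb1 (0.85 each).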

How the data were processed

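The authors deposited raw UMI counts as 1 gene-by-barcode matrix per library, made with Cell Ranger 5.0.1 and mouse build mm10, per the submitters' processing notes; no source used here names the annotation release. Groups came from the treatment labels. Kept cells had at least 300 genes, at least 500 UMIs and a mitochondrial share of at most 10%, and doublets (10.5% of MI-E, 10.7% of MI and 13.0% of Sham cells) were removed by a score against simulated doublets. The libraries were clustered together, uncorrected, on 2000 variable genes without the 5 genes described, with 40 components, 20 neighbours and Leiden resolution 1. Clusters were named from marker lists with at least 3 markers detected. Counts were summed per class and library; a called gene is 2-fold or more apart. Precision follows the UMIs of a class, for example 11805896, 16539141 and 10383611 in non-dividing monocyte-like cells of MI-E, MI and Sham.

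The 5 genes and all gene lists were chosen with earlier results of these data known. Genes named were the 5 in every class, the 5 most like each by Pearson r, and of each list the 4 with the largest mean CPM plus any with a 4-fold difference for MI over Sham or MI-E over MI. Alternatives covered the cell filter, doublets, resolution, variable genes, clustering apart, thinning, scaling, weights and the top cell. The ratios, their intervals and the 2-fold calls were tested on simulated class sums with Poisson counts, the model that the intervals assume. The other steps were not tested in this way. Software was scipy 1.17.1, numpy 2.4.6, scikit-learn 1.9.0, pandas 2.3.3, leidenalg 0.10.2, igraph 0.11.9, scikit-image 0.26.0 and matplotlib 3.10.9 under Python 3.11.15.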

Additional observations from a re-analysis of the deposited data

Results flagged for a closer look

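Thbs1 stood on opposite sides of Sham in different cells. For MI over Sham its ratio was 7.65 in non-dividing monocyte-like cells and 0.645 in neutrophil-like cells, and for MI-E over Sham it was 2.75 and 0.251 in the same classes. F13a1 did likewise within the monocyte-like cells, with MI over Sham at 1.16 in non-dividing and 0.761 in dividing cells, and MI-E over Sham at 1.44 and 0.914. The last of these changed direction under 6 of 15 alternatives (0.845 to 1.10); the others kept theirs. The counting intervals of these ratios exclude 1, but with 1 library per group the difference between the classes was not tested. Within neutrophil-like cells the direction of Thbs1 for MI over Sham also varied among clusters. MI and Sham had 235 and 239 CPM in cluster 10, which held most Sham cells of the class, and 76.7 and 53.4 CPM in cluster 5.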

How the results depend on the processing

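In all monocyte-like cells, each of 15 ratios (5 genes, 3 comparisons) was recomputed under 15 alternatives, and 13 of the 15 kept their direction under all of them. The exceptions were F13a1 for MI over Sham (log2 -0.10, from -0.24 to 0.17) and for MI-E over Sham (0.09, from -0.01 to 0.42). On the 2-fold limit, 13 of 15 kept their side; the exceptions were F10 for MI over Sham (log2 0.70, up to 1.09) and Thbs1 for MI-E over Sham (0.99, from 0.76 to 1.47). Thbs1 therefore joined Vcan, giving 2 genes 2-fold or more higher in MI-E than in Sham, under 10 alternatives: looser and stricter cell filters, doublets kept, resolution 2, 4000 variable genes, the 5 genes among the variable genes, libraries clustered apart, thinned cells, equal weight of cells and the top cell left out.

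In the order Thbs1 MI over Sham, then Vcan MI over Sham, the log2 ratios of 2.73 and 2.37 became 3.02 and 2.65 with the looser filter, 2.94 and 2.59 with the stricter one, 3.07 and 2.69 with doublets kept, 2.87 and 2.51 at resolution 2, 3.10 and 2.73 with 4000 variable genes, 3.01 and 2.66 with libraries clustered apart, 2.89 and 2.52 with equal weight of cells, and 2.43 and 2.05 without the cells over 1% S100a8 and S100a9; Vcan was 2.58 in thinned cells. Thbs1 for MI-E over MI, at -1.73, became -1.63 with 4000 variable genes and with libraries clustered apart, -1.54 in thinned cells, -1.82 with median-of-ratios scaling and -1.63 with equal weight. The causes of these moves were not tested.

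In non-dividing monocyte-like cells all 15 ratios kept their direction and 14 their side of 2-fold; Fn1 for MI over Sham reached a log2 ratio of 1.02 with doublets kept. In dividing cells 7 of 15 kept their direction and 11 their side, and F13a1 for MI-E over Sham ran from 0.845 to 1.10; Thbs1 and Vcan for MI over Sham stayed above 2-fold (lowest 2.45 and 2.09), and Thbs1 for MI-E over MI reached 0.763 without the cells over 1% S100a8 and S100a9. No paired analysis was possible because each group has 1 library. Depth limits Thbs1 in non-classical cells (7 to 31 UMIs) and in dividing Sham cells (48 UMIs).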
